A study of Rattus norvegicus with 2 samples.

Results

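The circRNAs of 3 genes that are best known from blood and immune cells, Ikzf1, Dock8 and Map4k1, were followed in spinal cord from a rat model of bone cancer pain (BCP) and from sham controls. Members were all rows of the deposited circRNA table whose gene field held 1 of these names. There were 3 such circRNAs of 11599 in all, 1 for each gene, and no row was listed under a synonym of the genes. The genes were chosen by their read counts in the 2 libraries, which were higher in BCP, so the levels and ratios below describe that choice and carry no test.

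In the BCP group, live Walker256 cells, a rat mammary carcinoma line grown as ascites in SD rats, were injected into the tibial marrow cavity. The sham group had the same operation and received Walker256 cells that had been boiled for 20 min. Tissue dates from day 21 after the operation, and 3 animals per group are described. Each group had 1 library, made from RNA depleted of ribosomal RNA and digested with RNase R, an exonuclease that removes linear RNA. The labels do not say whether the animals were pooled. The tissue label of both libraries names spinal cord, and their source label names the injected line. Each comparison is therefore between these 2 libraries, without a replicate check. The labels give neither the age nor the sex of the operated animals, and do not name their strain separately.

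A circRNA is a closed loop made by back-splicing, in which the end of an exon is spliced to the start of an exon upstream of it or to its own start, and reads over that junction count it. Ikzf1 encodes Ikaros, a zinc finger transcription factor of lymphoid and myeloid cells that works with chromatin remodelling complexes. Dock8 encodes a guanine nucleotide exchange factor for the GTPase Cdc42 and is needed for the migration and survival of lymphocytes. Map4k1 encodes HPK1, a kinase of haematopoietic cells that acts below antigen receptors and can feed into the JNK cascade. In the spinal cord, microglia are the resident immune cells. Back-splice reads measure the circle alone, and the linear mRNA of these genes was not measured here.

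The promoter windows of the 3 genes are shown because they are a feature that the choice of members did not use. They come from the RefSeq table of the GRCr8 build, which differs from the build of the circRNA positions, and each window runs from 250 bases before to 50 bases after the gene's start on the plus strand. All 3 symbols matched. Capitals mark matches to any of 9 short motifs searched on both strands: the core AGGAAG of ETS factors such as PU.1, the RUNX core TGTGGT, the Ikaros core TGGGAA, the core AGATAA of GATA factors, the E-box CAGCTG, the GC box GGGCGG bound by SP1, the TATA box in its form TATAAA, the box bound by NF-Y in its form CCAAT, and the AP-1 site TGACTCA.
Ikzf1, chr14:90468446-90468745: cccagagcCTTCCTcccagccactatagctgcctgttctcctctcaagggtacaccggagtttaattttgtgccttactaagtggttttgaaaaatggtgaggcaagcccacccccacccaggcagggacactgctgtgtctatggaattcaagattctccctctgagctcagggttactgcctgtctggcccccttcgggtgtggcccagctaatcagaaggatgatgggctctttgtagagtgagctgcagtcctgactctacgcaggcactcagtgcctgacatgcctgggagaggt
Dock8, chr1:232075427-232075726: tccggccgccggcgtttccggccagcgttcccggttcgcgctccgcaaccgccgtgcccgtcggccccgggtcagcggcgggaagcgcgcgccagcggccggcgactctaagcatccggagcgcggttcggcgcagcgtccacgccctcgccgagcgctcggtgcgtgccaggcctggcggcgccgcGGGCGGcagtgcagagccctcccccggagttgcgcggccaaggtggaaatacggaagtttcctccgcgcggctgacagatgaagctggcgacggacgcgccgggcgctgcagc
Map4k1, chr1:93398319-93398618: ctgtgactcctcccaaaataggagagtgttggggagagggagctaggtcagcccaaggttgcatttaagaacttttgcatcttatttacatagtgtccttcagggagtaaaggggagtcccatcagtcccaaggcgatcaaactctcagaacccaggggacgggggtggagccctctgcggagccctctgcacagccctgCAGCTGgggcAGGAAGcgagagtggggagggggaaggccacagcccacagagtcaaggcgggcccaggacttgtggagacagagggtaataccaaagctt
No motif of the 9 was found in all 3 windows. AGGAAG was matched in the windows of Ikzf1 and Map4k1, once each, and in 34.5% of all 33469 promoter windows of the table. CAGCTG was matched in Map4k1 alone of the 3 (15.1% of all windows), and GGGCGG in Dock8 alone (33.1%). The other 6 motifs had 0 matches in these windows and were found in 4.63% to 37.5% of all windows. None of the motifs overlapped another in these windows. The windows differed in base composition. That of Dock8 was 75.7% G and C with 53 CpG dinucleotides, above 97.2% and 99.6% of all windows. Those of Ikzf1 (54.7%, 3 CpG) and Map4k1 (57.0%, 5 CpG) were above the median over all windows in G and C (51.7%) and below it in CpG (7). A match of letters is not evidence of binding, and the back-splice reads do not measure promoter activity.

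The sham library held 113033 back-splice reads and the BCP library 78836. Counts were scaled to these totals and are given as counts per 1000000 circRNA reads (CPM). Each value counts reads over a single junction, so the length of the host gene does not enter the comparison of levels. Intervals are 95% exact binomial (Clopper-Pearson) intervals for a level and conditional exact binomial intervals for a ratio. They cover counting error only, since the reads carry no molecular identifiers and may repeat a molecule.

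The circRNA of Ikzf1 lay on chromosome 14 (91797457 to 91804795, build rn6) and spanned 7339 bp of the genome. The sham library held 11 of its reads and the BCP library 43. That is 97.3 CPM in sham (48.6 to 174) and 545 CPM in BCP (395 to 735). The ratio of BCP to sham was 5.60 (2.84 to 12.1). It was the most abundant of the 3 circRNAs in both libraries, at rank 254 of the 7375 circRNAs listed in BCP and rank 1800 of the 9003 listed in sham. Among the 216 circRNAs with 11 sham reads, BCP counts ran from 0 to 43 with a median of 6, and Ikzf1 held the highest.

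The circRNA of Map4k1 lay on chromosome 1 (87947015 to 87947368) and spanned 354 bp. Its reads numbered 4 in sham and 33 in BCP, or 35.4 (9.64 to 90.6) and 419 (288 to 588) CPM. The ratio was 11.8 (4.21 to 46.0), and the width of that interval comes from the 4 sham reads. It ranked 359 in BCP, and 37.4% of the circRNAs listed in sham had fewer reads. Of the 1151 circRNAs with 4 sham reads, the median in BCP was 0 reads and the highest 38. A circRNA of Faxdc2 was the 1 with more BCP reads than Map4k1.

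The circRNA of Dock8 lay on chromosome 1 as well (243014234 to 243018525) and spanned 4292 bp. It was listed at 0 in sham and had 12 reads in BCP, 152 CPM (78.7 to 266). The smallest count above 0 in either library was 2, so a listed 0 may stand for fewer than 2 reads and no fold is given. With 1 read put in place of the sham 0, the ratio would be 17.2 (2.55 to 735). It ranked 1171 in BCP. Of the 2596 circRNAs listed at 0 in sham, 55 had more BCP reads than Dock8, and the median was 3 reads.

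**Figure D1:**
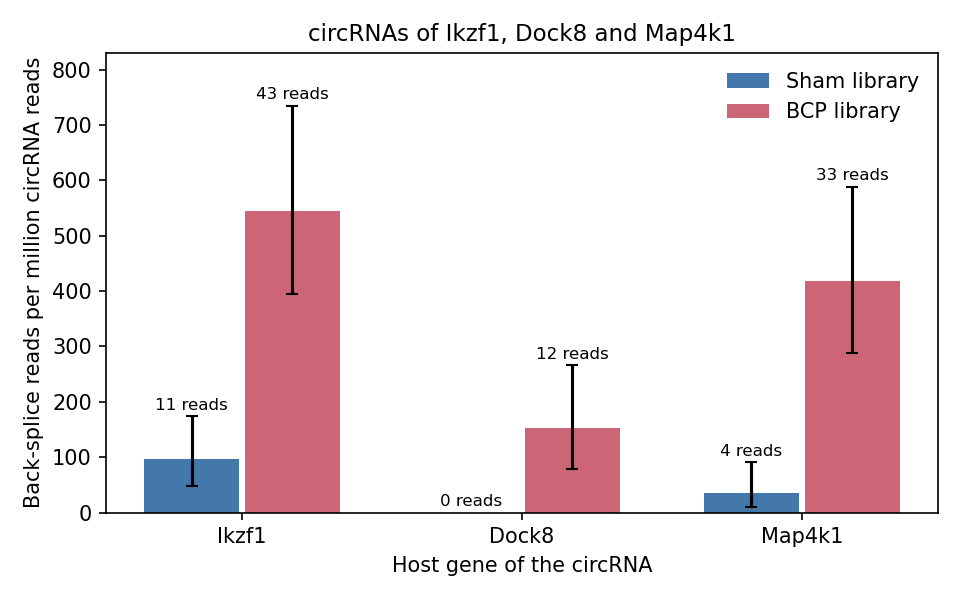
Level of the circRNAs of Ikzf1, Dock8 and Map4k1 in the sham and the BCP library, in CPM, with 1 library per bar, the raw reads above it and 95% exact binomial intervals as error bars. Ikzf1 has 11 and 43 reads, Map4k1 has 4 and 33 reads, and Dock8 is listed at 0 in sham. The genes were chosen as higher in BCP.

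In BCP the order of the levels was Ikzf1, Map4k1 and Dock8. The intervals of Ikzf1 and Map4k1 overlapped, so the order of this pair is not settled at this depth, while those of Map4k1 and Dock8 did not overlap. In sham the order was the same, with overlapping intervals for Ikzf1 and Map4k1. The intervals of their ratios overlapped too.

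These values were set against all circRNAs. A circRNA was tested when it had at least 10 reads over both libraries, and it met the size rule when its ratio, computed with 0.5 reads added to each count, was at least 2-fold and the interval of the ratio excluded 1. Of 3502 tested circRNAs, 274 (7.82%) were higher and 257 (7.34%) lower in BCP. All 3 member circRNAs passed the read minimum and were higher in BCP, which follows from how the genes were picked. Among tested circRNAs with reads in both libraries, as for Ikzf1 and Map4k1, 190 of 3244 (5.86%) were higher and 83 (2.56%) lower. All 84 tested circRNAs listed at 0 in sham met the rule (100%), so for Dock8 the call says no more than that it had at least 10 reads in BCP and was listed at 0 in sham. The same holds for the other circRNAs below that were higher and listed at 0 in sham. In the other direction, a tested circRNA listed at 0 in BCP always meets the rule as lower. The lower calls of Mta1, Elavl3 and Flt1 below were fixed in that way. Dock8 lay close to the read minimum, with 12 reads in all, against 37 for Map4k1 and 54 for Ikzf1.

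**Figure D2:**
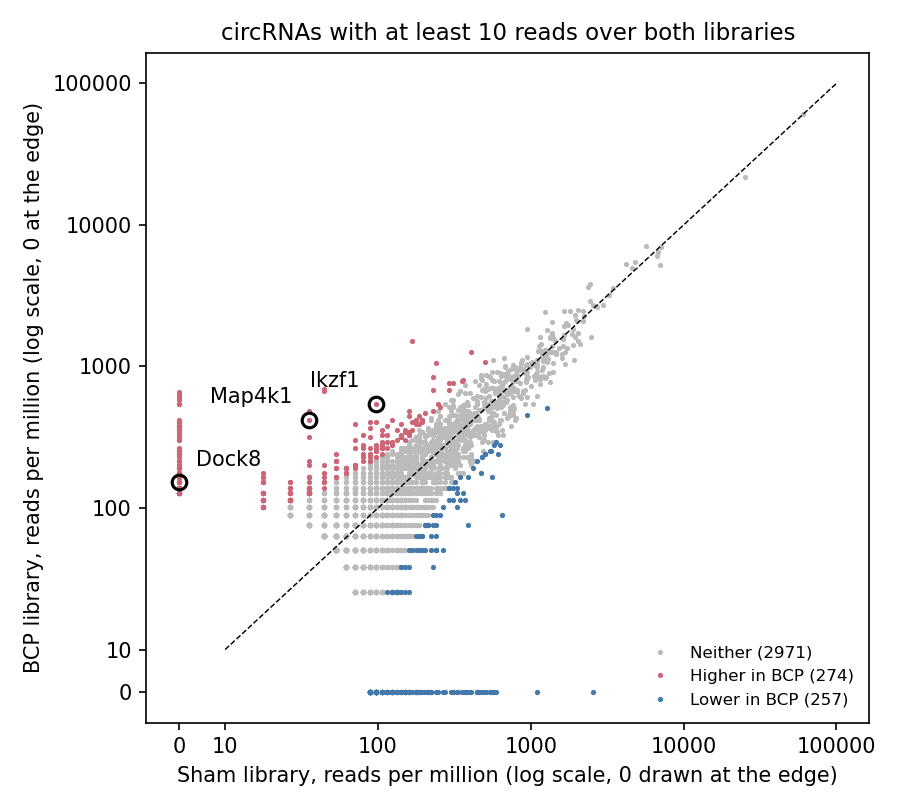
CPM in the sham library (x axis) and the BCP library (y axis), both on log scales with 0 drawn at the edge, for the 3502 tested circRNAs (summed reads of 10 or more), coloured by the size rule, with a dashed line at equal levels. The circled circRNAs of Ikzf1 and Map4k1 lie above the line among the 274 higher in BCP, and Dock8 lies at the left edge, listed at 0 in sham.

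The 3 circRNAs shared a simple layout. Each was the sole circRNA of its host, its row held 1 gene name, and 0 other circRNAs used its start or its end. Of the 3708 hosts named alone in at least 1 row, 48.9% had a single such circRNA, and 59.9% of all circRNAs shared a start or an end with another. Their spans lay below the median of all circRNAs, 9708 bp, at percentiles 43.0 for Ikzf1, 31.8 for Dock8 and 4.24 for Map4k1. Other circRNAs within 1 Mb did not meet the size rule, although only 1 around each member had enough reads to be tested. Near Ikzf1 that was Cobl, with 7 reads in each library. Near Dock8 it was a circRNA of Pip5k1b with 19 and 11 reads in sham and BCP, and near Map4k1 a circRNA of Zfp382 with 16 and 5. The annotation of exons and introns in the build of the table was not used here.

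The circRNAs most like the members in pattern were taken as the 3 with the nearest log2 ratio among those with 1 host name, reads in both libraries and a summed count near that of the member. For Ikzf1 (log2 ratio 2.44), 244 circRNAs with 44 to 67 summed reads qualified, and the nearest were hosted by the kinase gene Rps6ka5 (14 and 33 reads, 1.73), the deadenylase subunit gene Pan3 (18 and 38, 1.58) and the DNA methyltransferase gene Dnmt3a (18 and 35, 1.46). The nearest ratio was thus 0.71 lower on the log2 scale than that of Ikzf1. For Map4k1 (log2 ratio 3.42), 333 circRNAs with 30 to 46 summed reads qualified, and Faxdc2 was nearest (4 and 38 reads, 3.62), followed by Ciz1 (8 and 31, 2.41) and Ybx3 (10 and 32, 2.15). With 2 libraries, likeness in this sense is likeness of 1 ratio. Dock8 was listed at 0 in sham, so no such circRNA was sought for it.

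Other genes of the same cells were examined through a list of 56 microglia and macrophage genes that includes Ikzf1 and Dock8. Of these genes, 8 hosted 9 circRNAs, and the scaled level was higher in BCP for 8 of the 9. Over the whole table it was higher in BCP for 5279 of 11599 circRNAs (45.5%). Of the 9, 6 were listed at 0 in sham, as were 2596 (22.4%) of all circRNAs. A circRNA listed at 0 in sham can only be higher in BCP. Without Ikzf1 and Dock8, which were chosen as higher, 6 of 7 were higher, and 5 of the 7 were listed at 0 in sham. No result about the list is read from these counts. By the size rule 3 circRNAs were tested and 3 were higher, a count from which nothing is read, since 2 of them are the members. The third was of Bin2, a gene for a membrane-shaping protein of leukocytes, which had 0 listed reads in sham and 15 in BCP, so that its call was fixed in the same way as that of Dock8. The median log2 ratio of the tested ones was 5.16, against 0.02 over all tested circRNAs. It is that of Dock8 and rests on the pseudocount. The others had few reads. Lyn, a SRC family kinase gene, was listed at 0 in sham and had 6 reads in BCP. Plcg2, a phospholipase gene of immune receptor signalling, and Dock2, a relative of Dock8 in leukocytes, had 0 and 3 reads each. The 2 circRNAs of Elmo1 had 2 and 4 reads together. In the other direction, Ptprc, the gene of the leukocyte antigen CD45, went from 2 reads to a listed 0 in BCP, in a row that also held small RNA names. Summed, the list had 15 reads in sham and 86 in BCP, and without the members 4 and 31. The remaining 48 genes hosted no listed circRNA, among them the defining microglial genes Csf1r, Cx3cr1, P2ry12, Tmem119, Aif1 and Itgam.

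A list of 69 genes of haematopoietic and lymphoid signalling, with Map4k1 in it, gave 33 circRNAs of 14 hosts. Scaled levels were higher in BCP for 17 and in sham for 16. Of 6 tested, 3 were higher, 0 were lower and 3 met neither bound, against 7.82% higher and 7.34% lower over all tested circRNAs, and the median log2 ratio was 1.05. Besides Map4k1, the higher ones were a circRNA of Stk4, which encodes the kinase MST1 (0 and 30 reads, a call fixed by the listed 0), and one of Tox, a gene for a nuclear factor of T cell development (3 and 10 reads, ratio 4.78, 1.23 to 27.0). The 3 that met neither side were a further pair of Stk4 circRNAs (16 and 7 reads, and 6 and 4) and a circRNA of Ebf1, the B cell factor gene that is also used outside blood (11 and 2). Map4k1 was chosen as higher in BCP, so the count of 3 follows in part from that choice. Without it, 2 of 5 tested circRNAs were higher, those of Stk4 and Tox, and only the call of Tox was not fixed. The median log2 ratio of these 5 was -0.01. The call of Tox is of a single circRNA. A second circRNA of Tox went from 3 reads to a listed 0 in BCP, and the gene had 6 and 10 reads in sum. Summed reads of the list were 96 in sham and 143 in BCP, and 92 and 110 without Map4k1. Genes of the antigen receptor complexes and their proximal kinases, such as Cd3e, Cd4, Lck and Zap70, hosted no listed circRNA, nor did the globin genes Hba-a2 and Hbb. The red cell anion exchanger gene Slc4a1 went from 6 reads to a listed 0 in BCP, and the receptor gene Flt3 had 7 and 0 over 3 circRNAs. In the other direction, Fli1 had 0 and 9 reads over 2 circRNAs, Nfatc2 4 and 13 over 3, and Prkcb 7 and 12 over 4. Of the 33 circRNAs of the list, 11 were listed at 0 in sham and 11 at 0 in BCP.

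**Figure D3:**
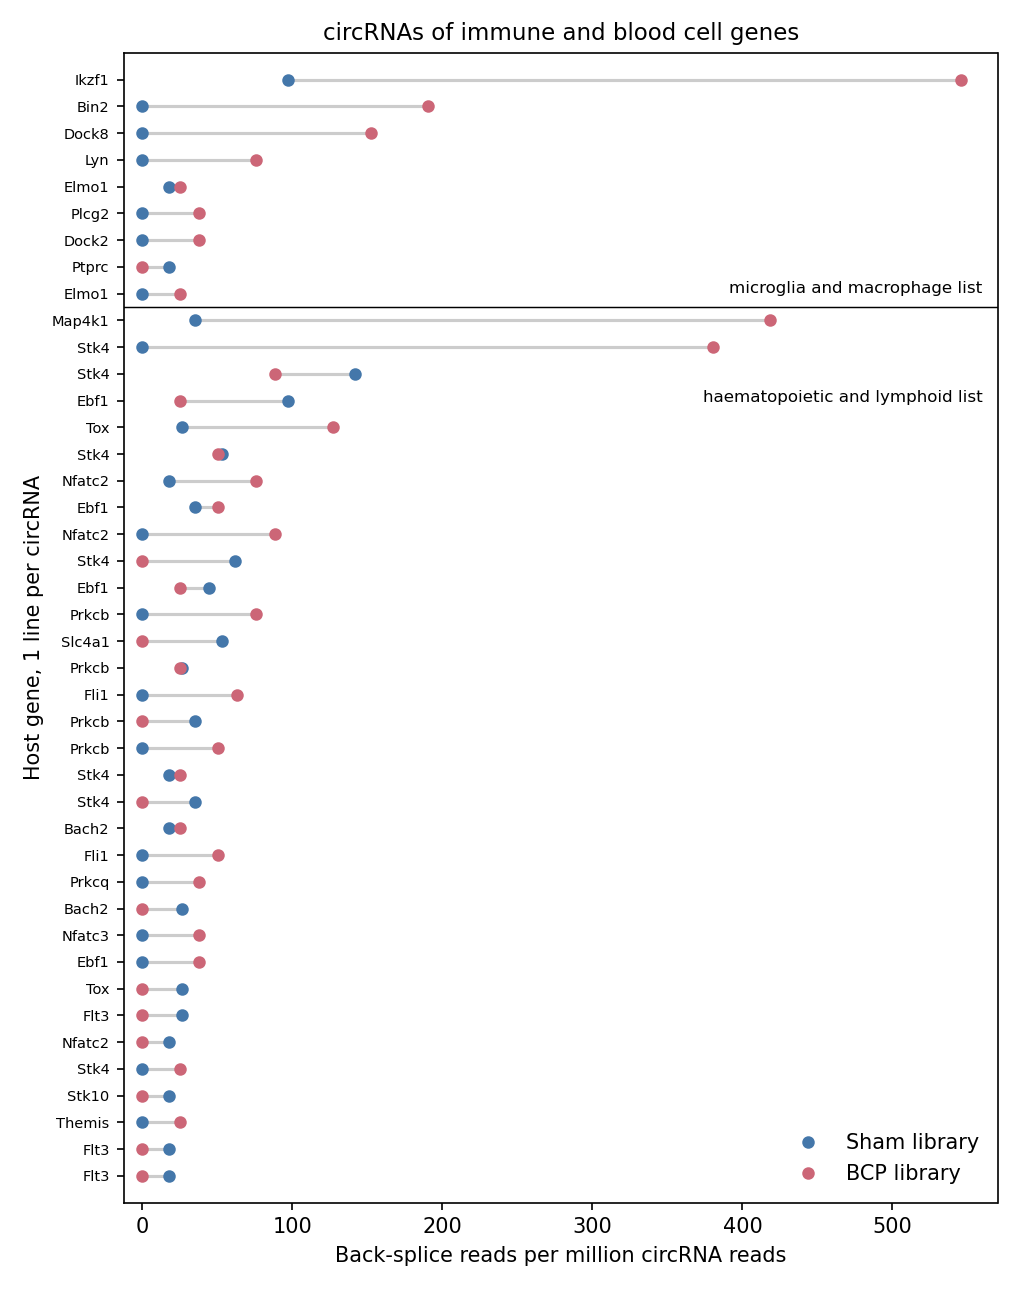
CPM (x axis) in the sham library (blue) and the BCP library (red) for each circRNA of the microglia and macrophage list (above the line) and of the haematopoietic and lymphoid list (below it), 1 line per circRNA, ordered by summed reads. Of the first list 8 of 9 circRNAs are higher in BCP, and of the second 17 of 33. Without the members, which were chosen as higher, these counts are 6 of 7 and 16 of 32.

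The families and partners of the members are given as a description. The members were chosen as higher in BCP, so that they stand out among their relatives follows from the choice. Over all tested circRNAs, 7.82% were higher and 7.34% lower in BCP. Of the Ikaros family, Ikzf1 was the sole host, and Ikzf2, Ikzf3, Ikzf4 and Ikzf5 had no listed circRNA. With the chromatin proteins that work with Ikaros, the list had 11 tested circRNAs, with a median log2 ratio of 0.00. Of these, 3 were higher, 1 was lower and 7 met neither side. Without Ikzf1, 2 of 10 were higher. The higher ones, besides Ikzf1, were of Hdac2, a histone deacetylase gene (0 and 43 reads), and of Gatad2a, a subunit gene of the NuRD complex (16 and 25 reads, ratio 2.24, 1.15 to 4.49). The lower one was of Mta1, another NuRD subunit gene (11 and 0 reads, a call fixed by the listed 0 in BCP). The circRNA with most reads in that list was a second one of Gatad2a, with 49 and 34 reads.

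In the DOCK family, 9 of 11 genes hosted 33 circRNAs. Most reads came from Dock3 (207 and 94 reads over 14 circRNAs) and Dock4 (143 and 168 over 10), both exchange factor genes with known roles in neurons. Dock8 was the sole higher one of 9 tested, 1 of Dock3 was lower (50 and 17 reads, 2.05-fold lower in BCP, 1.16 to 3.79) and 7 met neither side. The median log2 ratio of the 9 was -0.30. Without Dock8, whose call was fixed by the listed 0, 0 of 8 were higher, against 7.82% of all tested circRNAs. The circRNA of this family with most reads, of Dock4 (107 and 146 reads), had a ratio of 1.96 (1.51 to 2.53), just under the 2-fold bound. The other relatives expressed in blood cells, Dock2, Dock10 and Dock11, had 0 and 3, 2 and 0, and 0 and 2 reads.

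In the list of the MAP4K family and the JNK cascade, 14 of 24 genes hosted 33 circRNAs. Map4k1 was the sole higher one of 9 tested, 0 were lower and 8 met neither side, with a median log2 ratio of 0.12. Without Map4k1, which was chosen as higher, 0 of 8 were higher, against 7.82% of all tested circRNAs. The other MAP4K genes went from 0 to 3 reads (Map4k2), 11 to 6 (Map4k3), 7 to 0 (Map4k4) and 6 to 3 (Map4k5) between sham and BCP. Tnik, a related kinase gene of neurons, had most reads of the list, 56 and 48 over 9 circRNAs, and its most abundant circRNA had 18 in each library. The kinase genes Map2k4 (12 and 9 reads), Mapk8 (0 and 2) and Mapk10 (8 and 4) of the JNK cascade had few.

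Markers of other cells were read in the same way. Read counts are raw, and the ratios of summed reads, BCP to sham, are scaled to the library totals. Neuronal genes had 507 and 324 reads over 24 circRNAs, so markers of the labelled tissue were present. Their scaled ratio was 0.92 (0.79 to 1.06). Of 12 tested, 2 were higher (1 of Nefm, 0 and 12 reads, and that of Syt1) and 1 lower (1 of Elavl3, 52 and 0 reads). These calls are of single circRNAs and not of the genes. Over its 4 circRNAs Nefm had 17 and 14 reads. The circRNA of Elavl3 with most reads had 154 and 99 (ratio 0.92, 0.71 to 1.19). With median-of-ratios or TMM scaling, 1 of the neuronal circRNAs was higher (Nefm). Oligodendrocyte genes had 80 and 83 reads, a scaled ratio of 1.49 (1.08 to 2.05). Of 5 tested, 1 was higher (a circRNA of Mbp, 0 and 27 reads) and 0 were lower (1 lower with either scaling). Astrocyte genes had 130 and 95 reads, a scaled ratio of 1.05 (0.80 to 1.38). Vessel and meningeal genes had 50 and 43, a scaled ratio of 1.23 (0.80 to 1.89). Of 3 tested, 0 were higher and 1 was lower (a circRNA of Flt1, 20 and 0 reads). The other tested ones, of Tek (3 and 7 reads) and Vwf (4 and 7), met neither side. Of all 16 circRNAs of the list, scaled levels were higher in BCP for 10 and in sham for 6. Skeletal muscle and proliferation genes hosted 0 circRNAs. The ganglion neuron and Schwann cell list had 5 and 19 reads over 4 circRNAs, 0 of them tested, and a scaled ratio of 5.45 (1.97 to 18.7). The reads of this list were thus more numerous in the same library as those of Ikzf1, Dock8 and Map4k1, and their part in the result was not tested. More cells of a type and more circRNA per cell cannot be told apart in these bulk libraries.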

How the data were processed

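The authors deposited 1 table of back-splice read counts per circRNA, with 1 column per group. Its columns headed TPM are CPM values: per the deposited values, each of the 9003 counts above 0 in sham and 7375 in BCP, scaled to its column total, matched to within 0.001 CPM, and 0 was written as 0.001. The submitters' processing notes name CASAVA 1.8, BWA and the build rn6. Neither the notes nor the labels name the circRNA caller, its annotation or its read minimum. Such a minimum turns thinly covered circRNAs to 0.

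Counts were scaled to column totals, and log2 ratios used a pseudocount of 0.5 reads. The size rule needs no replicates and is no significance test. The members and the 12 gene lists were chosen with earlier results of these data known, and so support nothing independently. Named were all member circRNAs, list circRNAs that met the rule (at most 6 per direction), those with most reads of the immune and family lists, and the 3 nearest in pattern. Some genes were added after their values were seen, and a few list genes are not reported here. Alternatives were TMM scaling (edgeR 4.0.16), median-of-ratios scaling (DESeq2 1.42.0), totals without the 10 most abundant circRNAs, other pseudocounts, read minimums and ratios, and circRNAs with reads in both libraries. Counts came from Python 3.11.15 with scipy 1.17.1.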

Additional observations from a re-analysis of the deposited data

How the results depend on the processing

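The circRNAs of Ikzf1, Dock8 and Map4k1 met the size rule under every alternative run for them (31, host gene sums included), with log2 ratios from 2.32 to 5.16. These were alternatives of scaling, pseudocount and rows used. Other read minimums and ratios were run for the counts only, and a minimum of 20 reads would leave Dock8 untested. Host gene sums repeat the single circRNAs, since each gene had 1. Leaving out the circRNA with most reads therefore gave no value, and neither did restricting Dock8 to circRNAs with reads in both libraries. All log2 ratios shifted by -0.12 with TMM scaling and by -0.10 with median-of-ratios scaling. A listed 0 counted as 1 read was an alternative chosen after the data were seen, and it ended no member's call. Over all circRNAs, a minimum of 5 reads gave 690 higher and 558 lower, and one of 20 reads gave 139 and 112. With reads in both libraries required, 83 were lower. For the microglia and macrophage list, a minimum of 20 reads or reads in both libraries left 1 circRNA higher, that of Ikzf1. For the haematopoietic and lymphoid list, a minimum of 5 reads gave 6 higher and 1 lower. For the 10 lists that hosted a circRNA, 150 of 180 counts under alternatives stayed within 1.5 times the main count. That tally includes counts of 0 that stayed 0, so it is no measure of how stable the calls are. No paired analysis was possible because each group has 1 library. Depth limits Dock8 most, with 12 reads in all.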

Other observations

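The kinase gene Stk4, from the haematopoietic and lymphoid list, hosted 7 circRNAs on chromosome 3 (build rn6), each of which shared a start or an end with at least 2 others. Only 1 of the 7 met the size rule, as higher in BCP, and 0 were lower by it. The rule was open only to those with at least 10 reads over both libraries. The circRNA from 160491308 to 160495240, spanning 3933 bp, was listed at 0 in sham and had 30 reads in BCP, so its call was fixed by the listed 0. The one from 160472801 to 160495240, which ends at the same position, had 16 and 7 reads in sham and BCP. From the same start as the latter, circRNAs that end at 160484457 and 160512920 had 4 and 7 reads in sham and were listed at 0 in BCP. The sum over all 7 was 35 and 45 reads. These circRNAs were chosen after their values were seen, and no test was made.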
